A study of Danio rerio with 8 samples.

Results

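Insulin-like growth factor (IGF) signalling was described through 10 genes, the ligands igf1, igf2a and igf2b and the binding proteins igfbp1a, igfbp2a, igfbp3, igfbp5a, igfbp5b, igfbp6b and igfbp7. They were chosen as a named family and matched by symbol among the 31901 genes of the deposited raw count table, and all 10 were found. Of these, 8 passed the filter on low counts, and igfbp5a and igfbp6b did not. None of the 8 passed the test between lesioned and unlesioned cells in edgeR, DESeq2 or limma voom. DESeq2 gave no adjusted p for igf1 and igfbp7, so these could not pass there. Of the 8, 1 had an unadjusted p under 0.05 in edgeR, where 11.6% of all genes tested did. The largest part of the family's RNA came from igfbp1a, igf2b, igfbp3 and igfbp5b, and the groups overlapped for each of the 8.

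The RNA came from cells that flow cytometry had sorted for GFP out of zebrafish larvae of the line BAC(pdgfrb:Gal4ff)ncv24;UAS:GFP. There were 4 lesioned libraries, from larvae whose spinal cord had been cut mechanically 1 day before, and 4 unlesioned libraries, all at 4 days after fertilization. Larvae of both groups carried the transgene, in which the pdgfrb promoter drives the activator Gal4ff and this in turn drives GFP, so the cells are those in which that promoter is or was active. The labels name them myoseptal and perivascular cells, and they do not say how many larvae or clutches went into a library. With no more known of their origin, p-values reflect library-to-library spread, possibly technical, and fewer cells of a type cannot be told apart from less RNA per cell.

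IGF ligands are small secreted proteins related to insulin. They act through the receptor tyrosine kinase Igf1r, which signals through insulin receptor substrates, PI3 kinase and Akt to promote growth, survival and division. Most IGF in body fluids is held by binding proteins, which keep it from the receptor, prolong its life or deliver it to the cell surface and matrix, and which proteases cut to set it free. In mammals IGF2 is the main ligand of the embryo, and IGF1 becomes the main growth hormone target after birth. The products of igfbp1 to igfbp6 bind IGF tightly, while Igfbp7 binds it weakly and is known from blood vessels and matrix.

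The libraries held between 19552807 and 25358885 counts. The gene pdgfrb, whose promoter marked the sorted cells, was at 114 to 281 CPM in lesioned and 177 to 241 CPM in unlesioned libraries. The 24 tenocyte and myoseptal markers found summed to 18465 to 28241 CPM in lesioned and 15661 to 32425 CPM in unlesioned libraries. Lists of other cell types also had high sums. Skeletal muscle markers summed to 753 to 5743 CPM in lesioned and 1445 to 3701 CPM in unlesioned libraries. Epidermal markers summed to 1697 to 4191 CPM in lesioned and 947 to 5654 CPM in unlesioned libraries. Notochord markers summed to 1235 to 2256 CPM in lesioned and 985 to 1940 CPM in unlesioned libraries. The most abundant gene per length was actc1b in the muscle list, krt4 in the epidermal list and the keratin gene krt18a.1 in the notochord list. A sum alone does not establish that cells of a type were present. CPM is the count scaled to a common library total, after adjusting each total by its TMM factor. The 16 mural markers found, genes of cells that wrap vessels, summed to 4520 to 7944 CPM in lesioned and 8011 to 23396 CPM in unlesioned libraries, with no overlap (exact two-sided permutation p = 0.0286, the smallest possible, adjusted p = 0.133 over 14 lists). The glial list (112.8 to 241.5 CPM in lesioned and 266.8 to 578.7 CPM in unlesioned libraries) and the hepatocyte list, given beside igfbp1a, had no overlap either, with the same p and adjusted p. The most abundant gene per length was acta2 in the mural list and glula in the glial list, where 6 of 13 genes averaged under 1 CPM. Of 16 mural genes tested 3 had a positive and 13 a negative log2 fold change, and of 7 glial genes 2 and 5. In DESeq2 1 mural gene was called higher and 4 lower, and 1 glial gene lower, against 3.28% of all genes. The 24 stress and immediate early genes, which answer handling of cells among other stimuli, summed to 9011 to 21066 CPM in lesioned and 16893 to 29768 CPM in unlesioned libraries (exact permutation p = 0.0571, adjusted p = 0.200). Of these 24, 21 had a negative log2 fold change (median -0.83), against 8245 of all 15759 genes tested (median -0.04). At an unadjusted p under 0.05 in edgeR 8 were lower, against 864 of all genes. Groups without overlap, all lower in lesioned cells, were found for 4, against 616 of all genes. In DESeq2 3 (atf3, dusp2 and egr1) were called lower, against 242 of all genes. The part of these lists in the values of the IGF genes was not tested. Of 15759 genes tested in edgeR's quasi-likelihood test, 3 passed as higher in lesioned cells and 0 as lower at a Benjamini-Hochberg adjusted p under 0.05. That is 0.019% and 0%, and 11.6% of genes had an unadjusted p under 0.05. In DESeq2 3.28% of the 15759 genes passed, a share that counts genes without a DESeq2 adjusted p as not passing.

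The ligand igf2b (ENSDARG00000033307) lies on chromosome 25, minus strand, 24039364 to 24046870, and igf2a (ENSDARG00000018643) on the plus strand of chromosome 7 from 48870496 to 48876480. The gene igf1 (ENSDARG00000094132) lies on the plus strand of chromosome 4 from 17310143 to 17326717. All coordinates are those of the count table on GRCz11. Among binding proteins, igfbp1a (ENSDARG00000099351, minus strand, 6808774 to 6812688) and igfbp3 (ENSDARG00000099144, plus strand, 6756247 to 6804237) are neighbours on chromosome 20. The genes igfbp5a (ENSDARG00000039264, plus strand, 20910551 to 20918694) and igfbp2a (ENSDARG00000052470, minus strand, 20921542 to 20952187) are neighbours on chromosome 6. The gene igfbp5b (ENSDARG00000025348) lies on chromosome 9, minus strand, 46820636 to 46842179, and igfbp6b (ENSDARG00000090833) on the plus strand of chromosome 23 from 36601984 to 36605837. The gene igfbp7 (ENSDARG00000104138) lies on the plus strand of chromosome 14 from 52369262 to 52379718.

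Of the 10 genes, igfbp7 alone shares exon bases with another annotated gene, 24.4% of them with polr2b on the opposite strand. Counting ignored strand, and the header shows no option that counts a read for several genes, so igfbp7 may be undercounted in all libraries.

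Levels of different genes are compared per length, as RPKM, which is the CPM divided by the gene's exon length in kilobases. The highest of the 10 was igfbp1a with a mean of 50.4 RPKM over all 8 libraries, followed by igf2b (45.1 RPKM), igfbp3 (29.5 RPKM) and igfbp5b (18.1 RPKM). Next came igf2a (11.5 RPKM), igfbp7 (8.67 RPKM) and igfbp2a (6.58 RPKM). The mean of igf1 was 0.824 RPKM, and igfbp5a and igfbp6b had 0.111 and 0.032 RPKM. Between neighbours in this order down to igfbp2a the ranges of the libraries overlapped. The level of igfbp1a alone ran from 11.1 to 110 RPKM, while that of igf2b ran from 15.7 to 69.6 RPKM.

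Among the ligands igf2b, a zebrafish copy of the fetal growth factor gene IGF2, held most of the RNA. It made up 80.4%, 79.9%, 81.4% and 52.8% of the summed ligand RPKM in lesioned libraries 1 to 4, and 89.8%, 83.3%, 71.7% and 77.3% in unlesioned libraries 1 to 4. Lesioned library 4 stood lowest, where igf2a made up 40.9%. The gene igf1 held at most 6.25% in any lesioned library and 1.28% in any unlesioned library.

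The values of igf2b were 144, 195, 142 and 53.0 CPM in lesioned libraries 1 to 4, against 183, 236, 216 and 54.2 CPM in unlesioned libraries 1 to 4. Library 4 was the lowest in both groups, and the groups overlapped. The means were 133 ± 59.0 CPM in lesioned and 172 ± 81.6 CPM in unlesioned cells (SD, n = 4 each). The log2 fold change was -0.37 ± 0.47 (SE) with a 95% interval from -1.42 to 0.68 (adjusted p = 0.854 in edgeR). It ran from -0.67 without unlesioned library 4 to -0.10 without lesioned library 4.

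The other copy, igf2a, had 20.01, 27.2, 18.8 and 25.4 CPM in lesioned libraries 1 to 4, against 11.4, 27.2, 52.6 and 9.26 CPM in unlesioned libraries 1 to 4. The lesioned values lay close together inside the wide range of the unlesioned ones. Means were 22.8 ± 4.09 CPM in lesioned and 25.1 ± 19.99 CPM in unlesioned cells. The log2 fold change of -0.14 ± 0.51 (95% interval -1.28 to 1.01, adjusted p = 0.963 in edgeR) turned to 0.51 without unlesioned library 3. It also turned with library size as the only scaling (0.11), so no direction is given for igf2a.

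The ligand igf1, the main mediator of growth hormone after birth in mammals, was near the limit of counting. Its counts were 22, 45, 15 and 53 in lesioned libraries 1 to 4, against 19, 23, 0 and 7 in unlesioned libraries 1 to 4. These are 0.937, 1.85, 0.678 and 2.29 CPM in lesioned and 0.866, 1.205, 0 and 0.329 CPM in unlesioned libraries. The groups overlapped. The log2 fold change was 1.255 ± 1.21 (95% interval -1.44 to 3.95, adjusted p = 0.781 in edgeR), 0.42 in libraries 1 and 2 alone and 3.202 in libraries 3 and 4 alone.

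**Figure D1:**
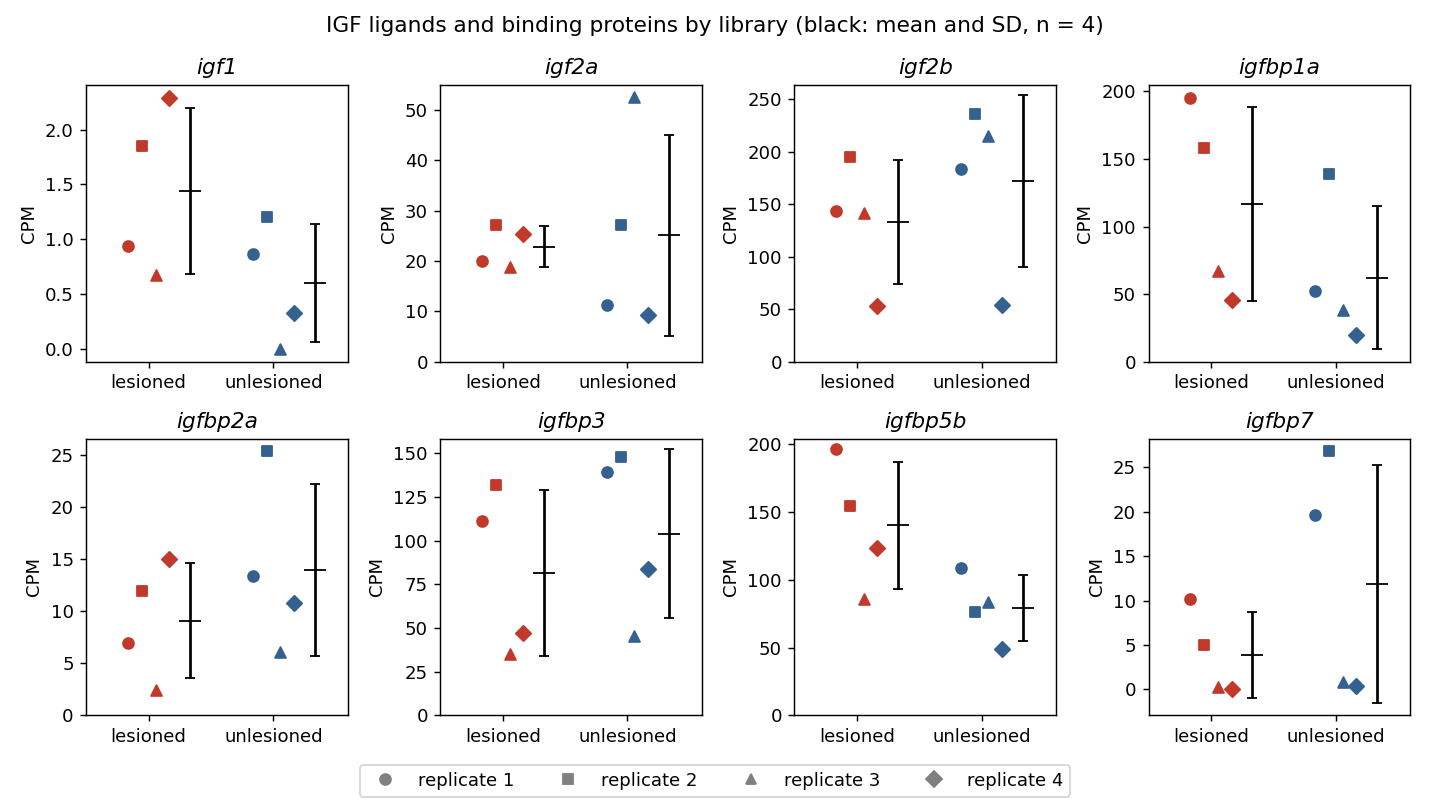
CPM (vertical axes, linear, a scale for each gene) of the 8 tested genes in each library, lesioned left and unlesioned right, with the marker shape giving the replicate number and the black bar the mean and SD of 4. The groups overlap in each panel, and igfbp7 lies at 5.04 CPM or more in libraries 1 and 2 of both groups and at 0.818 CPM or less in libraries 3 and 4.

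Among the binding proteins igfbp5b had the lowest p of the family. Igfbp5 is a matrix-binding IGF carrier known from bone, muscle and connective tissue. Its values were 197, 154, 85.7 and 123 CPM in lesioned libraries 1 to 4, against 108, 76.2, 83.3 and 49.2 CPM in unlesioned libraries 1 to 4. Lesioned libraries 1, 2 and 4 lay above all unlesioned ones, and lesioned 3 lay between unlesioned 3 and unlesioned 1. The means were 140 ± 47.0 CPM in lesioned and 79.2 ± 24.3 CPM in unlesioned cells, a fitted ratio of 1.77. In the fit the log2 fold change was 0.82 ± 0.31 (95% interval 0.12 to 1.52, adjusted p = 0.335 in edgeR, and 0.143 in DESeq2), with an unadjusted p of 0.0254 in edgeR. It was 0.93 in libraries 1 and 2 alone and 0.73 in libraries 3 and 4 alone.

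The paralog igfbp5a was nearly absent. Its counts were 4, 0, 0 and 8 in lesioned libraries 1 to 4, against 0, 0, 1 and 27 in unlesioned libraries 1 to 4. Most of its counts came from unlesioned library 4. Of igfbp6b there were 0, 1, 0 and 7 counts in lesioned libraries 1 to 4 and 0 in each unlesioned library. A count of 0 allows up to 3 counts, or 0.137 to 0.157 CPM in the unlesioned libraries, for counting error only, so no fold is given.

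The gene igfbp1a encodes the binding protein that in zebrafish and mammals is induced by low oxygen and fasting. It had 195, 158, 67.2 and 45.7 CPM in lesioned libraries 1 to 4, against 52.5, 139, 38.1 and 19.6 CPM in unlesioned libraries 1 to 4. In each group libraries 1 and 2 were higher than libraries 3 and 4. The means were 117 ± 71.6 CPM in lesioned and 62.3 ± 52.9 CPM in unlesioned cells. For igfbp1a the log2 fold change was 0.90 ± 0.62 (95% interval -0.47 to 2.27, adjusted p = 0.652 in edgeR). It was 1.66 without unlesioned library 2, and 0.54 without lesioned library 1.

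Genes of glycolysis and the hypoxia response stood beside igfbp1a as follows. Of 23 tested, 0 passed in edgeR or limma voom and 1, aldoaa, in DESeq2, against 3.28% of all genes. At an unadjusted p under 0.05 there were 3 higher and 2 lower in lesioned cells (5 of 23, against 11.6% of all genes), and the median log2 fold change was -0.08, against -0.04 for all genes. Groups did not overlap for 3 of the 23, all higher in lesioned cells, against 9.23% of all genes in either direction. The summed level of the list was 2530 to 4175 CPM in lesioned and 2543 to 4253 CPM in unlesioned libraries. Liver is a known source of Igfbp1. Its defining marker fabp10a was at 0 in each lesioned library and at most 0.047 CPM in an unlesioned one, and 10 of the 15 hepatocyte markers averaged under 1 CPM. The summed hepatocyte list, 860 to 1684 CPM in lesioned and 1854 to 2543 CPM in unlesioned libraries, was nearly all rbp4, a retinol carrier. The part of either list in the igfbp1a values was not tested.

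The neighbour of igfbp1a, igfbp3, encodes the main carrier of IGF in mammalian blood. It had 112, 132, 35.2 and 46.9 CPM in lesioned libraries 1 to 4, against 139, 148, 45.3 and 83.8 CPM in unlesioned libraries 1 to 4. Libraries 1 and 2 of both groups lay above libraries 3 and 4 of both groups. The means were 81.3 ± 47.5 CPM in lesioned and 104 ± 48.5 CPM in unlesioned cells, and the log2 fold change was -0.36 ± 0.48 (95% interval -1.43 to 0.72, adjusted p = 0.864 in edgeR). It ran from -0.68 without lesioned library 2 to -0.11 without lesioned library 3.

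The binding protein gene igfbp2a, whose product restrains growth when abundant in mammals and zebrafish, had 6.94, 11.9, 2.44 and 15.045 CPM in lesioned libraries 1 to 4. It had 13.4, 25.4, 6.11 and 10.8 CPM in unlesioned libraries 1 to 4. Lesioned library 4 lay above unlesioned 4, and the other 3 lesioned libraries lay below the unlesioned libraries of the same number. Its log2 fold change was -0.62 ± 0.61 (95% interval -1.97 to 0.74, adjusted p = 0.787 in edgeR), -1.04 in libraries 1 and 2 alone and 0.13 in libraries 3 and 4 alone. Without lesioned library 4 it was -0.97, and without unlesioned library 2 it was -0.16.

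The values of igfbp7 ran from 0 to 26.8 CPM. Its counts were 239, 123, 5 and 0 in lesioned libraries 1 to 4, against 430, 512, 17 and 7 in unlesioned libraries 1 to 4. In CPM these are 10.2, 5.04, 0.226 and 0 in lesioned and 19.6, 26.8, 0.818 and 0.329 in unlesioned libraries. The values differed more between libraries 1 and 2 and libraries 3 and 4 than between lesioned and unlesioned. Within libraries 1 and 2 both lesioned values lay below both unlesioned values, and so they did within libraries 3 and 4, there on few counts. For igfbp1a and igfbp5b both lesioned values lay above both unlesioned values within each of these sets. The share of all genes that separate in this way was not computed. The log2 fold change of igfbp7 was -1.62 ± 1.599 (95% interval -5.17 to 1.93, adjusted p = 0.787 in edgeR), and -1.61 in libraries 1 and 2 alone (adjusted p = 0.225). The main fit has no term for the split of libraries 1 and 2 against 3 and 4, so its SE includes that split. With such a term the log2 fold change was -1.89 ± 0.73 (adjusted p = 0.284 in edgeR). Single libraries moved the value of the main fit, from -2.75 without lesioned library 1 to -0.85 without unlesioned library 2.

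Markers of vessel cells were read beside igfbp7, which endothelium expresses in mammals. The 16 endothelial markers found summed to 42.2, 82.4, 43.4 and 48.1 CPM in lesioned libraries 1 to 4, and to 61.1, 64.8, 60.9 and 57.2 CPM in unlesioned libraries 1 to 4. In lesioned cells library 2 had the highest sum and the other 3 lay close together, and the 4 unlesioned libraries lay between these levels. The endothelial cadherin cdh5 was at most 0.246 CPM in any lesioned library and 0.144 CPM in any unlesioned one, lyve1b was at 0 in all 8, and the most abundant marker per length, egfl7, had 5.02 CPM in lesioned and 20.8 CPM in unlesioned cells on average. The summed mural markers, given above, were lower in each lesioned library than in any unlesioned library, with unlesioned 4 highest, where igfbp7 had 7 counts. Of the 11 endothelial markers tested, 4 had a positive and 7 a negative log2 fold change. In DESeq2 egfl7 alone of them was called, as lower, against 3.28% of all genes in either direction. The part of the vessel markers in the igfbp7 values was not tested.

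**Figure D2:**
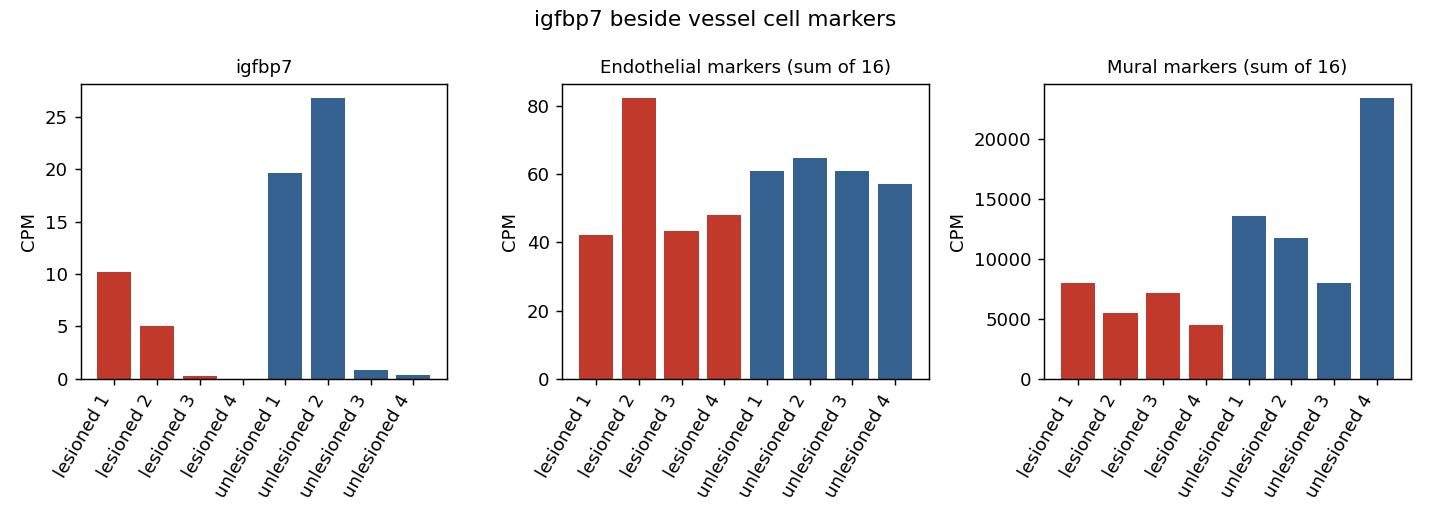
CPM (linear axes from 0) of igfbp7 and the summed CPM of 16 endothelial and 16 mural markers in each library, lesioned in red and unlesioned in blue. The igfbp7 bars nearly vanish in libraries 3 and 4 of both groups, and the endothelial sum lies between 42.2 and 82.4 CPM in lesioned and between 57.2 and 64.8 CPM in unlesioned libraries.

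Other measures also followed the replicate numbers. Over all tested genes, 5.56% had libraries 1 and 2 of both groups above libraries 3 and 4, and 3.56% had them below, without overlap. Of the 8 tested genes of the family, igfbp3 and igfbp7 were of the first kind and none of the second. The share of counts from mitochondrial genes was 9.54% and 10.2% in lesioned libraries 1 and 2 and 16.8% and 14.5% in lesioned 3 and 4. It was 8.91% and 8.98% in unlesioned libraries 1 and 2 and 16.5% and 13.8% in unlesioned 3 and 4. Insulin itself, ins, a product of the pancreas and the gene of the family's namesake hormone, had 0, 0, 32.7 and 19.2 CPM in lesioned libraries 1 to 4 and 0, 0.052, 60.1 and 35.3 CPM in unlesioned libraries 1 to 4. Its split was thus the opposite of that of igfbp7. The labels name no batch, and the part of these differences in the values of the family was not tested.

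Set against the unlesioned library of the same number, igf1, igfbp1a and igfbp5b were higher in the lesioned library at all 4 numbers, and igf2b, igfbp3 and igfbp7 were lower at all 4. Over all tested genes 13.6% were higher and 12.9% lower at all 4 numbers, 26.6% in either direction. The smallest of these differences were -0.03 on the log2 scale for igf2b at number 4 and 0.04 for igfbp5b at number 3. Some rest on few counts, such as igf1 at number 3 (15 in lesioned, 0 in unlesioned) and igfbp7 at number 4 (0 in lesioned, 7 in unlesioned). The labels do not state that libraries of the same number are pairs. The groups of none of the 8 genes were free of overlap, against 9.23% of all genes tested. With the replicate number as a block in edgeR, the log2 fold changes were 1.03 for igfbp1a (adjusted p = 0.201), 0.81 for igfbp5b (0.214), -2.07 for igfbp7 (0.254), -0.42 for igfbp3 (0.386), -0.32 for igf2b (0.479) and 1.92 for igf1 (0.617).

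**Figure D3:**
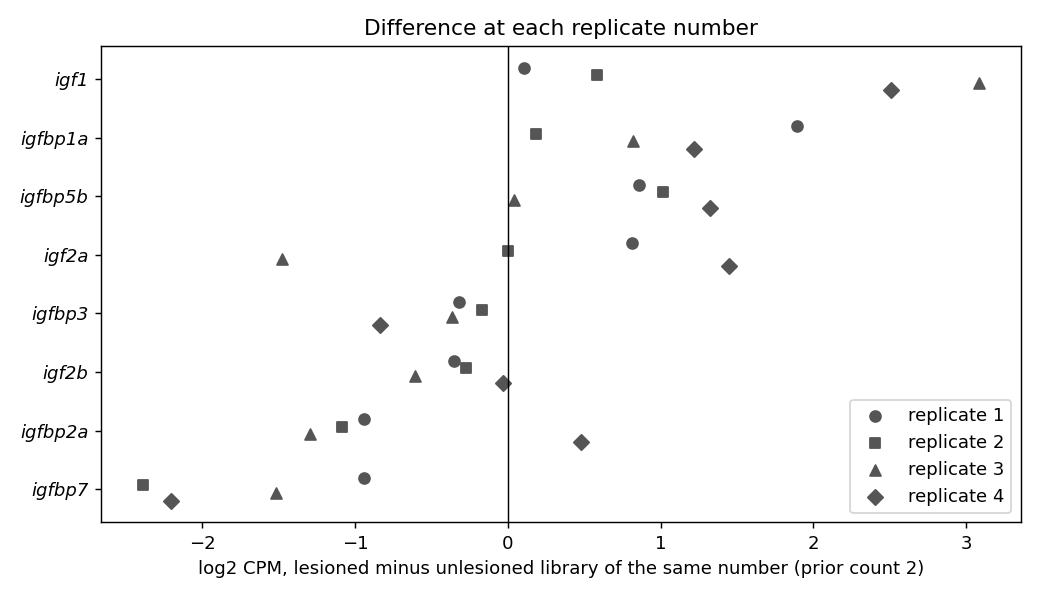
Difference in log2 CPM (horizontal axis, prior count 2) between the lesioned and the unlesioned library of the same replicate number, for the 8 tested genes, with the marker shape giving the number. All 4 points of igf1, igfbp1a and igfbp5b lie right of 0 and all 4 of igf2b, igfbp3 and igfbp7 left of it, while igf2a and igfbp2a have points on both sides.

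The make-up of the binding protein RNA per length is given as a description. In lesioned libraries 1 to 4 igfbp1a held 56.98%, 52.8%, 58.4% and 36.8% of the summed RPKM of the 7 binding proteins, against 24.5%, 43.1%, 39.7% and 20.9% in unlesioned libraries 1 to 4. The share of igfbp1a was higher in the lesioned library at each number, but the groups overlapped, since lesioned 4 lay below unlesioned 2 and 3. The share of igfbp3 was 18.3%, 24.8%, 17.2% and 21.3% in lesioned libraries 1 to 4, against 36.6%, 25.8%, 26.6% and 50.3% in unlesioned libraries 1 to 4. These shares did not overlap, but 24.8% in lesioned 2 lay close to 25.8% in unlesioned 2. The CPM of igfbp3 itself overlapped between the groups, and a share also falls when other binding proteins rise. There is no value over all genes to set beside these shares. The igfbp5b share was 15.1 to 29.1% in lesioned and 6.92 to 25.5% in unlesioned libraries.

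The 7 binding proteins summed to 193, 169, 64.9 and 70.04 RPKM in lesioned libraries 1 to 4, against 121, 182, 54.1 and 52.9 RPKM in unlesioned libraries 1 to 4. The 3 ligands summed to 52.7, 72.1, 51.3 and 29.7 RPKM in lesioned libraries 1 to 4, against 60.3, 83.7, 88.8 and 20.7 RPKM in unlesioned libraries 1 to 4. The ratio of binding protein to ligand RNA was 2.41 ± 0.984 in lesioned and 1.84 ± 0.850 in unlesioned libraries (SD, n = 4 each). It lay from 1.26 to 3.67 in lesioned and from 0.609 to 2.56 in unlesioned libraries.

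**Figure D4:**
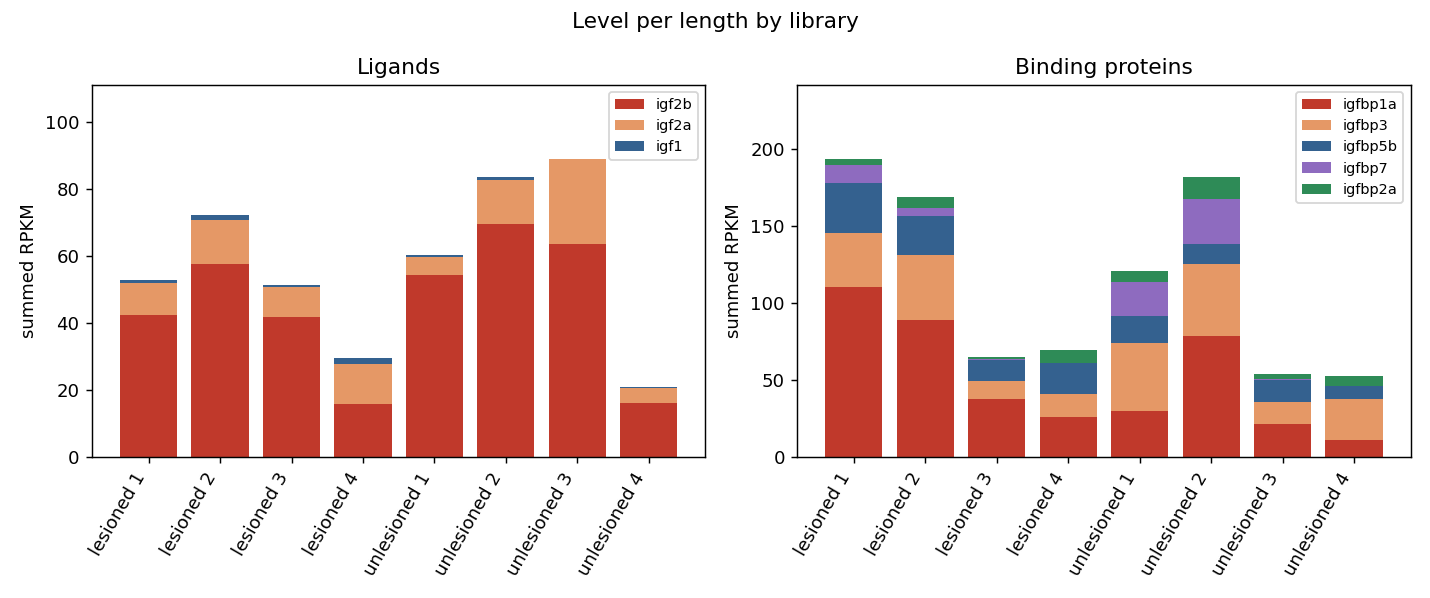
Summed RPKM (vertical axes, linear from 0) of the 3 ligands and of the 5 more abundant binding proteins in each library, lesioned left and unlesioned right, stacked by gene. The gene igf2b fills most of each ligand bar, and the binding protein bars of libraries 1 and 2 reach 121 RPKM or more, while those of libraries 3 and 4 stay at or under 70.04 RPKM.

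Genes whose log2 CPM ran most like that of igf2b and igfbp1a over the 8 libraries were looked up among 8061 others with a mean of at least 10 CPM. Closest to igf2b were ucmaa, a cartilage matrix protein gene (Pearson r = 0.9754), col11a1b, a chain of fibrillar collagen XI (0.973), and ino80, a chromatin remodeller (0.971). Closest to igfbp1a were si:dkey-184p18.2 (0.986), eef1a1l1, a translation elongation factor (0.979), and rps27.2, a ribosomal protein gene (0.969). These are the highest values of a wide search in libraries that share depth and number, and are given as a description only.

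Receptors and adaptors pass the IGF signal into the cell. Of 15 tested, 0 passed in edgeR, DESeq2 or limma voom, and at an unadjusted p under 0.05 in edgeR 0 were higher and 2 lower in lesioned cells, which is 2 of 15 against 11.6% of all genes and near that share. The 2 were grb10a, an adaptor that dampens insulin and IGF receptor signalling in mammals, and grb2b, an adaptor to Ras. The gene grb10a had 13.3 ± 5.32 CPM in lesioned and 26.3 ± 9.69 CPM in unlesioned cells (log2 fold change -0.98 ± 0.39, adjusted p = 0.351 in edgeR). For grb2b the means were 27.2 ± 5.63 CPM in lesioned and 43.4 ± 12.2 CPM in unlesioned cells (-0.67 ± 0.29, adjusted p = 0.398 in edgeR). The most abundant per length was grb10b, with 11.9 RPKM in lesioned and 13.2 RPKM in unlesioned cells. The gene igf2r, whose product clears IGF2 in mammals, had 0.602 RPKM in lesioned and 0.238 RPKM in unlesioned cells (log2 fold change 1.34 ± 0.76, adjusted p = 0.561 in edgeR). DESeq2 gave igf2r no adjusted p.

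The IGF receptor genes themselves were named after their values were seen. The receptor gene igf1rb had 25.2, 30.2, 28.7 and 28.4 CPM in lesioned libraries 1 to 4, against 22.9, 28.9, 37.4 and 19.9 CPM in unlesioned libraries 1 to 4. Its lesioned values lay inside the unlesioned range, and the log2 fold change was 0.04 ± 0.27 (95% interval -0.57 to 0.66, adjusted p = 0.980 in edgeR). The other receptor gene, igf1ra, averaged 4.11 CPM in lesioned and 4.74 CPM in unlesioned cells (95% interval -1.43 to 1.03 on the log2 scale, adjusted p = 0.945 in edgeR). Per length igf1rb had 2.27 RPKM in lesioned and 2.204 RPKM in unlesioned cells.

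Among proteases and regulators of binding proteins, 0 of 14 tested passed in edgeR or limma voom, and 1 in DESeq2, htra3a, against 3.28% of all genes. The median log2 fold change of the list was 0.45, with 10 positive and 4 negative, against 7514 positive and 8245 negative of all genes tested. The gene htra3a encodes a secreted serine protease of the HtrA family, whose member HTRA1 cuts binding proteins in mammals. It had 26.8, 34.7, 54.8 and 5.92 CPM in lesioned libraries 1 to 4, against 7.80, 3.25, 8.09 and 13.5 CPM in unlesioned libraries 1 to 4. Lesioned libraries 1 to 3 lay above all unlesioned ones and lesioned 4 did not, and the log2 fold change was 1.90 ± 0.63 (adjusted p = 0.272 in edgeR, and 0.0460 in DESeq2).

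The most abundant of that list per length was htra1b, with 87.5 ± 46.5 RPKM in lesioned and 64.1 ± 30.7 RPKM in unlesioned cells (log2 fold change 0.45 ± 0.53, adjusted p = 0.834 in edgeR). The proprotein convertase gene furina had 52.6 ± 10.4 CPM in lesioned and 38.2 ± 8.14 CPM in unlesioned cells (adjusted p = 0.542 in edgeR). For stc2a, a stanniocalcin that inhibits the IGF-freeing pappalysins in mammals and zebrafish, the means were 16.7 ± 7.31 CPM in lesioned and 9.16 ± 4.44 CPM in unlesioned cells (adjusted p = 0.567 in edgeR). The pappalysin gene pappaa, named after its values were seen, averaged 3.63 CPM in lesioned and 1.39 CPM in unlesioned cells (adjusted p = 0.640 in edgeR).

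Downstream, of 43 tested genes of the PI3 kinase, Akt, TOR and FoxO pathway 0 passed in edgeR or limma voom and 2 in DESeq2, against 3.28% of all genes. A positive log2 fold change was found for 16 and a negative one for 27, against 7514 and 8245 of all genes. The 2 were akt1s1 and gsk3ba, and their groups alone of the 43 did not overlap, a smaller share than the 9.23% of all genes. The gene akt1s1 encodes PRAS40, an Akt substrate that restrains TOR complex 1. It had 100, 121, 128 and 68.3 CPM in lesioned libraries 1 to 4, against 174, 167, 240 and 235 CPM in unlesioned libraries 1 to 4. For akt1s1 the log2 fold change was -0.97 ± 0.25 (adjusted p = 0.193 in edgeR and 0.0217 in DESeq2).

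The kinase gene gsk3ba, an Akt target, had 59.3, 55.3, 34.4 and 39.2 CPM in lesioned libraries 1 to 4, against 30.1, 24.3, 25.7 and 23.5 CPM in unlesioned libraries 1 to 4. All lesioned values lay above all unlesioned ones, and the log2 fold change was 0.86 ± 0.26 (adjusted p = 0.229 in edgeR and 0.0451 in DESeq2). The translation repressors eif4ebp3 and eif4ebp2, TOR substrates, had 45.0 ± 14.2 and 424 ± 40.6 CPM in lesioned cells, and 71.1 ± 7.57 and 561 ± 91.0 CPM in unlesioned cells. Their adjusted p were 0.360 and 0.475 in edgeR, and eif4ebp2 was the most abundant of the list per length.

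In the growth hormone axis 0 of 10 tested genes passed in edgeR, DESeq2 or limma voom, and 0 had an unadjusted p under 0.05. The receptor genes ghra and ghrb had 17.2 ± 3.61 and 65.3 ± 21.4 CPM in lesioned cells, and 25.5 ± 9.87 and 86.4 ± 17.5 CPM in unlesioned cells (adjusted p = 0.597 and 0.645 in edgeR). The signal transducer stat5a averaged 3.75 CPM in lesioned and 1.54 CPM in unlesioned cells (adjusted p = 0.637 in edgeR, none given by DESeq2). The feedback inhibitor socs3a was the most abundant per length, with 266 ± 63.5 RPKM in lesioned and 340 ± 88.4 RPKM in unlesioned cells (adjusted p = 0.687 in edgeR).

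Proteins of the Igf2bp family bind IGF2 and other mRNAs in the cytoplasm of embryonic cells. Of 4 tested genes 0 passed in edgeR, DESeq2 or limma voom, and 1 had an unadjusted p under 0.05 in edgeR, igf2bp1, against 11.6% of all genes. It had 270, 330, 229 and 374 CPM in lesioned libraries 1 to 4, against 189, 201, 208 and 196 CPM in unlesioned libraries 1 to 4. All lesioned values lay above all unlesioned ones, where the groups of 9.23% of all genes tested did not overlap in either direction. The log2 fold change of igf2bp1 was 0.60 ± 0.21 (adjusted p = 0.279 in edgeR, and 0.101 in DESeq2). The most abundant per length, igf2bp2b, had 41.2 ± 5.48 RPKM in lesioned and 54.1 ± 20.01 RPKM in unlesioned cells (adjusted p = 0.683 in edgeR), and igf2bp3 had 12.4 RPKM in lesioned and 11.3 RPKM in unlesioned cells (adjusted p = 0.911 in edgeR).

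Of 10 further ligand and binding protein genes found in the table, 5 were tested and 0 passed in edgeR, DESeq2 or limma voom, with 0 at an unadjusted p under 0.05. Apart from ins, they were low. The paralog igfbp1b averaged 0.616 RPKM in lesioned and 0.831 RPKM in unlesioned cells (adjusted p = 0.943 in edgeR), against 65.7 RPKM in lesioned and 35.1 RPKM in unlesioned cells for igfbp1a. The gene kazald2, of a family related to the binding proteins, averaged 1.51 RPKM in lesioned and 5.19 RPKM in unlesioned cells (adjusted p = 0.750 in edgeR). DESeq2 gave no adjusted p for igfbp1b and kazald2.

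**Figure D5:**
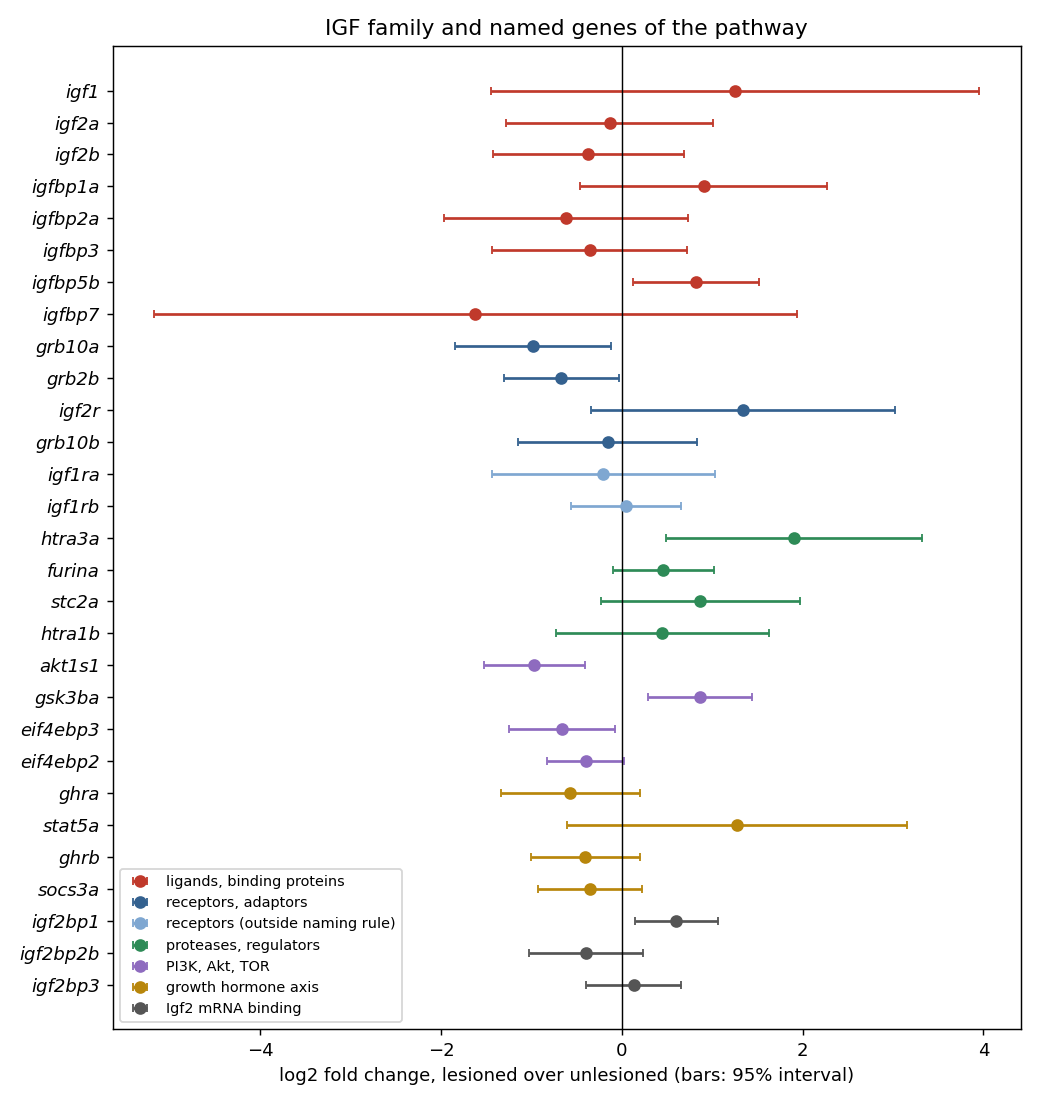
Log2 fold change of lesioned over unlesioned (horizontal axis) with its 95% interval for the 8 tested genes of the IGF family and named genes of the pathway, coloured by list. Among the family the interval of igfbp5b alone (0.12 to 1.52) lies off 0, and no gene shown passed the adjusted threshold in edgeR.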

How the data were processed

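The deposited values are raw counts of reads for each gene, which the authors did not normalize. Per the submitters' processing notes, reads were aligned with GSNAP to GRCz11 and counted with featureCounts 1.6.2. Per the file headers, the counter was featureCounts 1.6.3, with the Ensembl 92 annotation, strand setting 0 and a minimum mapping quality of 1. The deposited gene length, an exon length in bases and other than a count, gave RPKM.

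The table gives Ensembl identifiers, of which 29178 of 31901 had a symbol in the reference table. Symbols given in capitals (IGFBP5) were assigned to a zebrafish gene by 15 neighbours on each side, with at least 2 shared. In this way 7 of the 10 genes were assigned, with 17 to 27 shared neighbours each. On paralogs of known symbol, 2337 were returned correctly, 5 wrongly and 73 not resolved. RefSeq lists the a and b names of igf2, igfbp2 and igfbp5 as older names of each other, so older work may use them the other way round. Spike-in entries were left out.

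The test of lesioned over unlesioned was run in edgeR 4.0.16 with R 4.3.3 (TMM, filterByExpr, robust quasi-likelihood F-test, two-sided, Benjamini-Hochberg over all 15759 genes, threshold 0.05). Simulated counts without a split of libraries were used to check the sign and size of changes and the p-values of unchanged genes. Recovery of changed genes was required only at a much reduced dispersion, so the check does not say how many changes were missed. The alternatives were DESeq2 1.42.0, limma voom 3.58.1, other scaling and filters, a replicate block, a term for libraries 1 and 2 against 3 and 4, and left-out libraries. The common dispersion of 0.561 is a biological coefficient of variation of 74.9%, so the spread between libraries limits precision more than depth. Reads have no molecular identifiers, and limits from a count of 0 cover counting error only.

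The same replicate numbers deviated together from their group means (r = 0.192, 0.182, 0.232 and 0.154 at numbers 1 to 4, each over 0.1). That rule alone does not establish pairs, since some unlike numbers also passed it. Lesioned 1 correlated with unlesioned 2 (0.199) at least as highly as with unlesioned 1, and lesioned 2 with unlesioned 1 at 0.182, so at numbers 1 and 2 these values do not separate the number from the split into libraries 1 and 2 against 3 and 4. At numbers 3 and 4 the unlike pairs were lower than the like ones. They were 0.047 for lesioned 4 with unlesioned 3, and 0.023 for lesioned 3 with unlesioned 4. The labels do not state a pairing. The genes and lists were chosen with earlier results of these data known. From each pathway list the 3 genes with the lowest p and the most abundant one per length are named.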

Additional observations from a re-analysis of the deposited data

Results flagged for a closer look

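Among 65 sets of 4 libraries (the 10 IGF genes, pdgfrb and the named pathway genes in each group, leaving out sets at 0 throughout), a single library stood far from the other 3 in 4 sets. For independent normal values about 1 set in 20 does so, and 4 of 65 is near that share. Sets with most counts near 0, as for igfbp5a and igfbp6b, are easily marked in this way. For igfbp5a the single library was unlesioned library 4, with 1.27 CPM against at most 0.048 CPM in the other unlesioned libraries. That library also had the highest summed mural markers (23396 CPM). For igfbp6b it was lesioned library 4, with 0.303 CPM, which rests on 7 counts. That library also had the highest summed macrophage markers (1035 CPM), most of it apoeb. Both libraries were also the highest or lowest of all 8 for other lists. Examples are the mural sum in lesioned 4 (4520 CPM, lowest) and the epidermal sum in unlesioned 4 (5654 CPM, highest). The part of these markers in the values was not tested. For the protease gene htra1b it was lesioned library 4, with 70.6 CPM against 393 to 459 CPM in the other lesioned libraries. For the growth hormone receptor gene ghrb it was unlesioned library 3, with 60.6 CPM against 92.9 to 99.1 CPM in the other unlesioned libraries.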

How the results depend on the processing

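None of the 8 tested IGF genes passed the threshold in the main test or in any alternative that gave it an adjusted p. DESeq2 gave none for igf1 and igfbp7. Of 142 log2 fold changes under the alternatives 136 kept their direction. The exceptions were igf2a, which turned to 0.22 in limma voom, 0.11 with library size alone, 0.22 with the replicate block, 0.29 in libraries 1 and 2 alone and 0.51 without unlesioned library 3 (-0.42 to 0.51 over the left-out libraries), and igfbp2a, which turned to 0.13 in libraries 3 and 4 alone. Among other named genes, pdgfrb turned to 0.010 with library size alone, 0.020 in libraries 3 and 4 alone and 0.062 without lesioned 4 (-0.36 to 0.062 over the left-out libraries). The value of grb10b turned to 0.022 with library size alone, 0.27 in libraries 1 and 2 alone, 0.0081 without lesioned 1, 0.19 without unlesioned 3 and 0.014 without unlesioned 4 (-0.48 to 0.19). The value of igfbp1b turned to 0.043 in limma voom and 1.28 in libraries 1 and 2 alone, where igf2bp2b turned to 0.22, and ins turned to 0.14 without unlesioned 3 (-1.90 to 0.14). The causes were not tested. Over all genes, 3 higher and 0 lower were called in the main test, 275 and 242 in DESeq2, 5 and 1 with no filter, 7 and 7 with a term for libraries 1 and 2 against 3 and 4, 5 and 1 in libraries 1 and 2 alone, and 0 and 0 in libraries 3 and 4 alone. Leaving out single libraries gave 3 to 7 higher and 0 to 1 lower, the largest counts without unlesioned 3. The replicate block called 2 higher and 0 lower, and it changed no call of a gene named here. With this block igfbp1a, igfbp5b and igfbp7 had unadjusted p of 0.0105, 0.0130 and 0.0212 in edgeR. Under 0.05 were 1153 higher and 1122 lower of all 15759 genes. With the term for libraries 1 and 2 against 3 and 4 their unadjusted p were 0.0227, 0.0103 and 0.0286 in edgeR. There 1151 higher and 1038 lower of all 15759 genes were under 0.05. Library size alone put the median of all log2 fold changes at 0.12, against -0.04. By CPM not divided by length, igf2b ranked 1, igfbp5b 2, igfbp1a 4, igfbp2a 6 and igfbp7 7 among the 10 genes. In libraries 3 and 4 alone igfbp7 was too low to be tested, and so was igf1 under the stricter filter.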

Other observations

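Growth hormone RNA, gh1, a product of the pituitary, was read beside the insulin values given above and was chosen after its values were seen. It had 0, 0, 0.045 and 0 CPM in lesioned libraries 1 to 4, against 4.88, 0, 7.08 and 0.047 CPM in unlesioned libraries 1 to 4. It did not follow the split of insulin, which was present in libraries 3 and 4 of both groups.

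Across the 8 libraries, igfbp3 and igfbp7 ran together (Pearson r of log2 CPM 0.866), and so did igfbp1a and igfbp7 after the group means were removed (0.929). These libraries share the split by replicate number, and the values are a description.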
